A study of Mus musculus with 8 samples.

Results

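Expression of 44 genes for glycolysis, glycogen and pyruvate metabolism was compared between 4 samples from Senp2-aKO mice and 4 from control mice in inguinal white adipose tissue, the subcutaneous fat of the groin (iWAT). The genes were chosen by name from the known pathway and from pairs of isoenzymes, so that forms made mainly in skeletal muscle could be set beside their more widely made relatives. The choice was made with earlier results of these data known. All 44 were among the 20972 named genes of the array, and all 44 were above background on all 8 arrays. Senp2-aKO mice carried Senp2flox/flox alleles and the Adipoq Cre transgene, in which the adiponectin promoter makes Cre recombinase in adipocytes. Control mice carried the same Senp2flox/flox alleles without the transgene, so a Cre transgene without floxed alleles was not among the groups. Both groups began a high-fat diet with 58 kcal% fat at 8 weeks of age, stayed on it for 12 weeks, and were housed at 22 to 24 °C. Senp2 is a SUMO protease, an enzyme that cuts the modifier SUMO off its target proteins.

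Glycolysis splits glucose into pyruvate in the cytoplasm, and pyruvate is either reduced to lactate or carried into mitochondria, where the pyruvate dehydrogenase complex converts it to acetyl-CoA. Glycogen is the stored form of glucose, built by glycogen synthase and taken apart by glycogen phosphorylase. Several steps are served by paralogous enzymes from separate genes, and for some of them one paralog is the form of skeletal muscle. In adipocytes glucose enters largely through the insulin-responsive transporter encoded by Slc2a4, and glycolysis supplies glycerol phosphate and acetyl-CoA for triglyceride synthesis.

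Levels are given as log2 signal relative to the 75th percentile of the array, for the brightest probe of each gene, so a level of 0 is a signal at that percentile. Probes differ in brightness for the same amount of RNA, so no gene's level is read as higher or lower than another gene's. For pairs of paralogs, only the change of their difference between the groups is used. A log2 fold change is the Senp2-aKO mean minus the control mean, n was 4 arrays per group throughout, and adjusted p is Benjamini-Hochberg over the 14730 genes tested with limma. A gene rose or fell where that value was under 0.05. The arrays are numbered as the labels number the samples of each group.

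The 75th percentile of the signal was 324 to 382 on the Senp2-aKO arrays and 408 to 446 on the control arrays, and no spot was saturated. All 8 arrays shared 1 slide, with each group in its own row of it, so the row cannot be told apart from the genotype. Senp2 itself had levels of 2.19, 2.12, 2.20 and 2.22 in Senp2-aKO fat, against 2.46, 2.46, 2.52 and 2.37 in control fat. The groups did not overlap for Senp2, at 82.8% of the control level in Senp2-aKO fat, but its adjusted p was 0.0507 (log2 fold change -0.27, SE 0.077). Its RNA was measured by 1 probe in whole tissue, and whether that probe lies in the deleted part is not given in the sources used here. The fat markers Adipoq, Plin1 and the other 8 adipocyte markers were measured in both groups, with a summed level of 3400 to 4324 in Senp2-aKO fat and 2780 to 3598 in control fat, as linear signal relative to the 75th percentile. None of the 10 rose and 1 fell, Lep, which encodes the hormone leptin (log2 fold change -1.85, SE 0.27, adjusted p = 0.00761), named after its values were seen. The mean log2 levels of skeletal muscle, brown adipocyte and epithelial markers did not overlap between the groups. Those of macrophage, B and T lymphocyte, Schwann and nerve, and red blood cell markers did overlap. The summed level of the Schwann and nerve markers was still higher on every Senp2-aKO array than on any control array. Among the genes of these overlapping lists, the macrophage marker Cd163 alone passed the test, and it rose. The summed level of 19 measured skeletal muscle markers was 549 to 1505 in Senp2-aKO fat and 29.3 to 136 in control fat. Of the 19, 14 rose, against 7.29% of all 14730 genes tested, and Tnnc1, the other listed marker, was not measured. Mylpf, which rose, was above background on 4 Senp2-aKO arrays but on 1 of 4 controls. It was thus tested through the group where it is high. Ttn, which rose, was above background on 3 of 4 controls, and Tnni1, which did not pass, on 2 of 4 arrays in each group. The summed level of 9 measured brown adipocyte markers was 78.7 to 244 in Senp2-aKO fat and 14.7 to 40.0 in control fat, and 6 of the 9 rose. Among them, Ucp1, the uncoupling protein of brown fat, had a log2 fold change of 6.36 (SE 0.59, adjusted p = 0.00329). The 3 that did not pass, Lhx8 (-0.94), Zic1 (-0.40) and Ebf2 (-0.24), had log2 fold changes below 0. The 3 measured of 6 epithelial markers also had mean levels that did not overlap, with a summed level of 0.357 to 3.16 in Senp2-aKO fat and 0.229 to 0.329 in control fat. In whole tissue, fewer cells of a type and less RNA per cell cannot be told apart. Myofibres were not counted or separated, so RNA from muscle and RNA from adipocytes cannot be told apart in the values that follow.

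Of the 44 genes, 11 rose in Senp2-aKO fat (25.0%), none fell, and 33 did not pass the test in limma. Among all 14730 genes tested, 7.29% rose and 7.12% fell. At an unadjusted limma p under 0.05, 17 of the 44 were higher and 2 were lower, against 2171 and 2586 of the 14730 genes tested. The median log2 fold change of the 44 genes was 0.30, against -0.02 for all genes tested. Above 0 were 34 of the 44 genes and 6962 of all 14730. The 8 values of 13 genes fell into groups that did not overlap (29.5%), against 26.3% of all genes, and these 13 were the 11 that rose together with Hk2 and Pfkp. The genes that rose were Pgam2, Eno3, Pygm, Aldoc, Pdk2, Slc16a3, Pfkm, Phkg1, Ppp1r3c, Slc2a1 and Gys1. They differed widely in size of change: Pgam2 was 43.2-fold higher, while Gys1 was 1.44-fold higher.

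**Figure D1:**
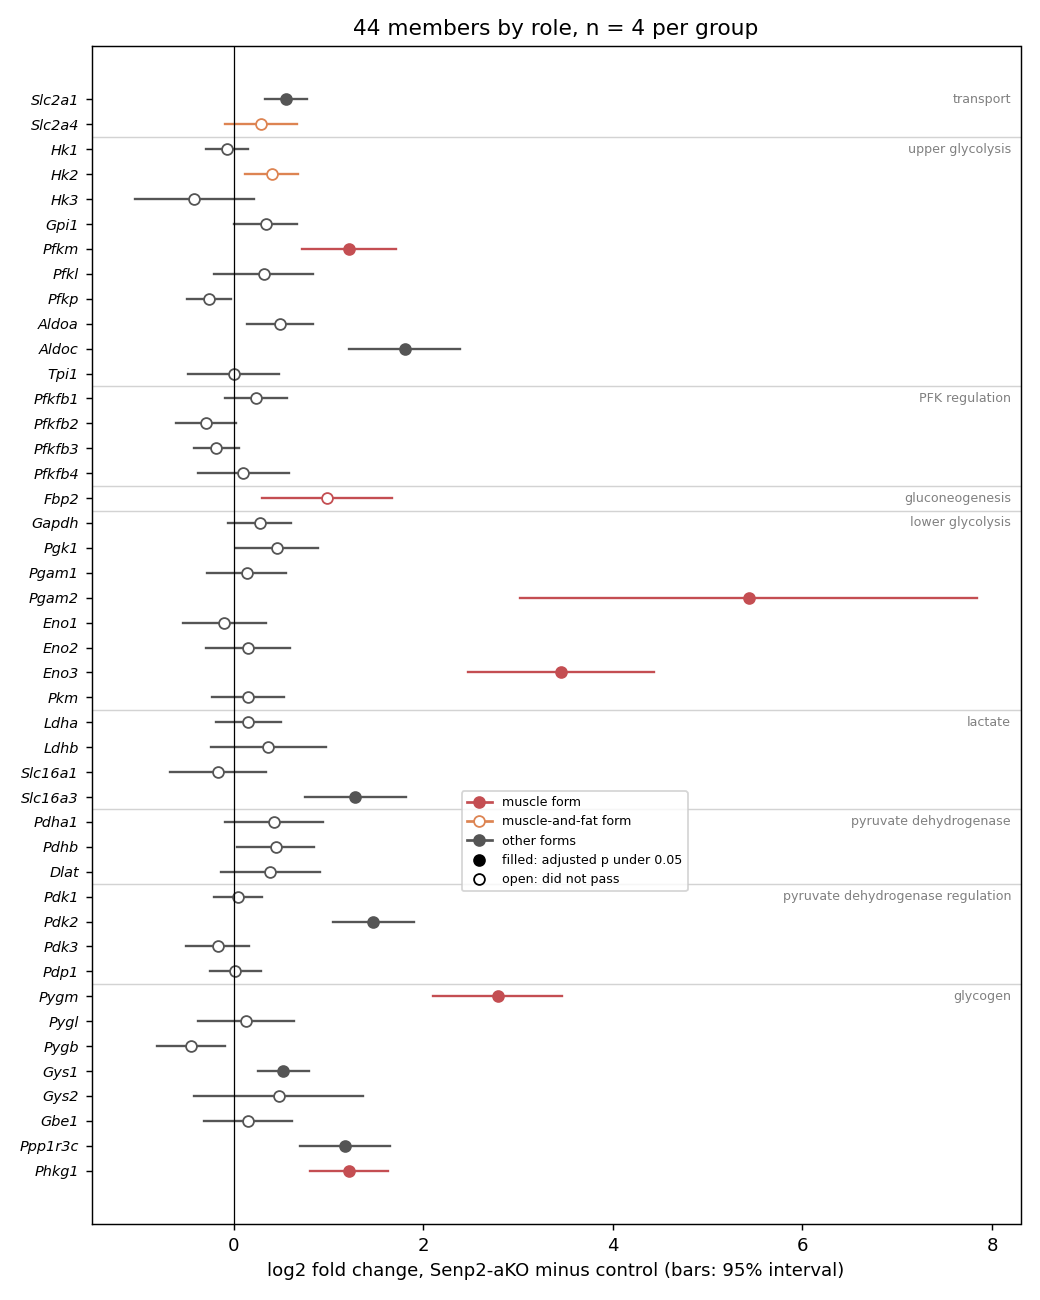
Log2 fold change (Senp2-aKO minus control, horizontal axis) of the 44 genes, 1 row per gene, with bars for the 95% confidence interval of the limma fit over 4 arrays per group. Pgam2, Eno3 and Pygm lie farthest to the right, 11 genes passed the test, and no gene lies below -0.45.

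Grouped by where the enzymes are mainly made, 3 muscle forms held the largest changes. The counts below stand beside the 7.29% of all genes tested that rose. Of the 6 muscle forms (Pfkm, Fbp2, Pgam2, Eno3, Pygm and Phkg1), 5 rose, and their median log2 fold change was 2.0. Of the 11 genes classed here as widely made, 2 rose (Slc2a1 and Gys1), with a median of -0.072. They were Slc2a1, Hk1, Gpi1, Pfkl, Pfkp, Pfkfb3, Pgam1, Eno1, Slc16a1, Pygb and Gys1. The class is mixed: Gpi1 is set beside no other form, Gys1 is also the form of muscle, and Pfkl and Pygb are named below as liver and brain forms. The other enzymes of the main path, set beside no muscle form here, were Aldoa, Tpi1, Gapdh, Pgk1, Pkm, Ldha, Ldhb, Pdha1, Pdhb, Dlat and Gbe1, of which Aldoa and Ldha are themselves the main forms in muscle. None of these 11 unpaired enzymes rose in limma, and their median was 0.37. At an unadjusted p under 0.05, 3 of them were higher, as were 2171 of all 14730 genes. Neither Hk2 nor Slc2a4, the forms shared by muscle and fat, passed. Of the remaining 14 genes, 4 rose (Aldoc, Slc16a3, Pdk2 and Ppp1r3c), with a median of 0.14. Without the 6 muscle forms, 6 of 38 genes rose and the median was 0.19.

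The muscle forms are described first, and promoters are shown for the 3 of them with the largest changes. Promoter windows run from 250 bases before to 50 bases after a transcript start, in RefSeq on GRCm38.p6, and 41 of the 44 genes had 60 such windows. The E-box CAGCTG, which reads the same on both strands and is bound by the muscle factors of the MyoD family among others, was present in 3 of the 8 windows of the 5 muscle forms that rose, those of Eno3, Pgam2 and Pygm. It was present in 12 of all 60 windows of the 44 genes (20%), and in 16.3% of all 32851 windows. Capitals mark CAGCTG in the sequences that follow, written 5′ to 3′ on the strand of the gene, and the window of Pgam1, the widely made paralog of Pgam2, is given beside them and holds none.
Pgam2 (chr11:5803747-5804046, minus strand): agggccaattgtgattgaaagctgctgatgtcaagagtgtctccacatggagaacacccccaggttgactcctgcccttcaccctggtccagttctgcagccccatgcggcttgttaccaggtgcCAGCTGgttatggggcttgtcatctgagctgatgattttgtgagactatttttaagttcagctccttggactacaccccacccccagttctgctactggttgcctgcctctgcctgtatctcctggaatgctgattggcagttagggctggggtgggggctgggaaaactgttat
Eno3 (chr11:70656926-70657225, plus strand): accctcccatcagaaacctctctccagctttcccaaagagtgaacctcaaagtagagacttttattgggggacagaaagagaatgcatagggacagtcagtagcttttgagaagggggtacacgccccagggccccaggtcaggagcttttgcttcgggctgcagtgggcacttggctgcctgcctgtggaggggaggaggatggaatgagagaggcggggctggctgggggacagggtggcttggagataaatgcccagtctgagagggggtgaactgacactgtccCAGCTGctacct
Pygm (chr19:6384158-6384457, plus strand): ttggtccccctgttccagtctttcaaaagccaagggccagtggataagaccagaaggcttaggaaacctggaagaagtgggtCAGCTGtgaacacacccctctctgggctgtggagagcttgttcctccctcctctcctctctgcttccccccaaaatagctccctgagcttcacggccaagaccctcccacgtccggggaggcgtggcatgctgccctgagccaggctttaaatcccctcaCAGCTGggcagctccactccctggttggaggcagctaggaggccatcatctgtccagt
Pgam1 (chr19:41911621-41911920, plus strand): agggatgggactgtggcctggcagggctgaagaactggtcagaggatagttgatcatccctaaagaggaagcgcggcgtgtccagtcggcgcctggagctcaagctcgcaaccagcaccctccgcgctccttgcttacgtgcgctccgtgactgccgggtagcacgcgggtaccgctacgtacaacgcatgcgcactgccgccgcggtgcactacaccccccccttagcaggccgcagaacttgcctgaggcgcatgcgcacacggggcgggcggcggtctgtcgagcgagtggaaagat
The match began 125 bases before the start in Pgam2, 38 bases after it in Eno3, and 168 and 8 bases before it in Pygm. The other 4 motifs were searched on both strands, and all motifs were chosen with the results known. The MEF2 consensus, the site of another family of muscle factors, was in 1 of the 8 windows of the muscle forms that rose, that of Pgam2, in 2 of the 60 windows of the 44 genes (3.33%), and in 3.19% of all windows. The letters CTA and TAG with 4 bases of any kind between them, which overlap that consensus, were in none of the 8 windows and in 3.69% of all windows. The C/EBP letters TTGCNNAA were in 2 of the 8, those of Pfkm and Phkg1, and in 10.8% of all windows. The HIF core ACGTG was in 3 of the 8, from Pfkm and Pygm, in 28 of the 60 windows of the 44 genes (46.67%), and in 19.62% of all windows. These matches describe the letters in each window and were not tested as binding sites.

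Pgam2, the muscle form of phosphoglycerate mutase, had levels of 3.02, 3.99, 4.63 and 3.44 in Senp2-aKO fat, against -3.54, -3.81, 0.64 and 0.062 in control fat. Every Senp2-aKO array was above every control array, and controls 3 and 4 lay well above controls 1 and 2. The mean was 43.2-fold higher in Senp2-aKO fat (95% confidence interval 8.13 to 229.; log2 fold change 5.43, SE 1.05, adjusted p = 0.0159). The size of the change moved with the arrays and the background correction used: the log2 fold change was 4.81 without control 1, 4.72 without control 2, 6.20 without control 3 and 4.63 with another background correction (normexp), and it passed the test each time. Its paralog Pgam1, made in most tissues, had levels of 6.03, 5.35, 5.85 and 6.23 in Senp2-aKO fat, against 5.63, 5.70, 5.69 and 5.89 in control fat. The groups overlapped for Pgam1, and it did not pass (log2 fold change 0.14, SE 0.18, adjusted p = 0.638).

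Eno3, the muscle enolase, had levels of 4.66, 5.56, 6.18 and 5.06 in Senp2-aKO fat, against 1.17, 1.41, 2.67 and 2.40 in control fat. Like Pgam2 it was highest on Senp2-aKO 3 and, among the controls, higher on controls 3 and 4 than on controls 1 and 2. Eno3 was 10.9-fold higher in Senp2-aKO fat (95% confidence interval 5.54 to 21.6; log2 fold change 3.45, SE 0.43, adjusted p = 0.00477). Eno1, the widely made enolase, had levels of 6.72, 6.01, 6.67 and 6.95 in Senp2-aKO fat, against 6.72, 6.57, 6.74 and 6.72 in control fat. Its Senp2-aKO arrays lay on both sides of the controls (log2 fold change -0.10, SE 0.19, adjusted p = 0.748). Eno2, the enolase best known from neurons, did not pass either (log2 fold change 0.15, SE 0.19, adjusted p = 0.628).

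Pygm, the muscle glycogen phosphorylase, had levels of 2.37, 3.18, 3.85 and 2.90 in Senp2-aKO fat, against 0.093, 0.064, 0.60 and 0.42 in control fat. The lowest Senp2-aKO array was well above the highest control, and the mean was 6.89-fold higher (95% confidence interval 4.31 to 11.0; log2 fold change 2.78, SE 0.29, adjusted p = 0.00367). The liver form Pygl had levels of 5.38, 4.48, 5.13 and 5.47 in Senp2-aKO fat, against 4.95, 5.11, 4.73 and 5.16 in control fat. The groups overlapped for Pygl (log2 fold change 0.13, SE 0.22, adjusted p = 0.72). The brain form Pygb had levels of 1.88, 1.63, 2.28 and 1.86 in Senp2-aKO fat, against 2.47, 2.44, 2.08 and 2.46 in control fat. For Pygb Senp2-aKO 3 lay within the control range, its fold change was below 0, and it did not pass (log2 fold change -0.45, SE 0.16, adjusted p = 0.0923).

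Pfkm, the muscle form of phosphofructokinase, which commits sugar to glycolysis, had levels of 2.88, 3.30, 4.02 and 3.34 in Senp2-aKO fat, against 2.03, 2.25, 2.17 and 2.21 in control fat. It was 2.32-fold higher in Senp2-aKO fat (log2 fold change 1.22, SE 0.22, adjusted p = 0.0132), and its 4 controls lay close together. The liver form Pfkl had levels of 2.74, 1.87, 2.40 and 2.92 in Senp2-aKO fat, against 2.05, 2.12, 2.02 and 2.48 in control fat. The platelet form Pfkp had levels of 1.65, 1.40, 1.67 and 1.73 in Senp2-aKO fat, against 1.86, 1.78, 2.0 and 1.84 in control fat. All Senp2-aKO arrays were below all controls for Pfkp, but neither Pfkl (log2 fold change 0.31, SE 0.23, adjusted p = 0.377) nor Pfkp (log2 fold change -0.26, SE 0.10, adjusted p = 0.124) passed.

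Phkg1, the muscle catalytic subunit of phosphorylase kinase, which switches glycogen phosphorylase on, had levels of -0.029, 0.21, 0.54 and -0.28 in Senp2-aKO fat, against -0.87, -1.15, -1.21 and -1.19 in control fat. It was 2.32-fold higher (log2 fold change 1.21, SE 0.18, adjusted p = 0.00754), and its other probe also passed, with a log2 fold change of 1.09 (adjusted p over probes 0.018). Phkg2, the catalytic subunit best known from liver and testis, had levels of 2.99, 3.14, 3.07 and 3.05 in Senp2-aKO fat, against 3.04, 3.16, 3.06 and 3.13 in control fat. The groups overlapped for Phkg2 (log2 fold change -0.036, SE 0.079, adjusted p = 0.787). Fbp2, the muscle fructose bisphosphatase, had levels of -2.51, -1.18, -1.16 and -1.75 in Senp2-aKO fat, against -2.74, -2.70, -2.27 and -2.83 in control fat. Senp2-aKO 1 fell inside the control range for Fbp2, and it did not pass (log2 fold change 0.98, SE 0.30, adjusted p = 0.0628). Its liver paralog Fbp1, one of the other pathway genes listed beside the 44, had levels of -1.12, -1.55, -0.40 and -0.76 in Senp2-aKO fat, against -2.64, -2.34, -1.83 and -2.96 in control fat. Fbp1 rose (log2 fold change 1.48, SE 0.30, adjusted p = 0.0189), but its adjusted p was 0.0504 without Senp2-aKO 4 and 0.0603 without control 1.

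**Figure D2:**
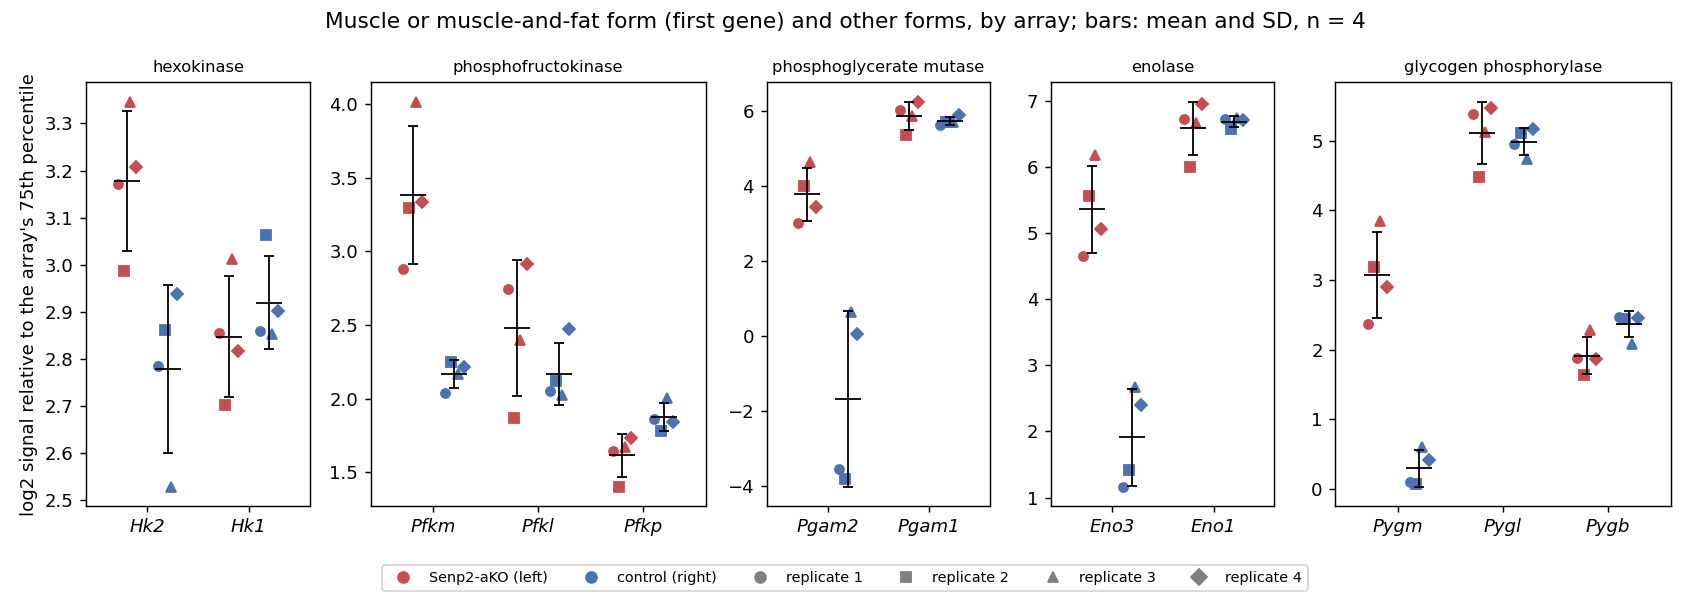
Level of hexokinase, phosphofructokinase, phosphoglycerate mutase, enolase and glycogen phosphorylase forms on each array (log2 signal relative to the 75th percentile of the array, vertical axis, with its own range in each panel), Senp2-aKO arrays left of control arrays, with bars for the mean and SD of 4 arrays. Pgam2, Eno3 and Pygm separate the groups most widely, while the points of Pgam1, Eno1 and Pygl overlap.

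The levels of the muscle markers moved with these values. Their mean level was 1.75, 2.37, 3.07 and 2.74 on Senp2-aKO arrays 1 to 4, against -2.34, -2.31, 0.55 and -0.32 on control arrays 1 to 4. All 6 muscle forms were highest on Senp2-aKO 3, the array with the highest marker mean, and 5 of the 6 had their lowest Senp2-aKO value on array 1, the Senp2-aKO array with the lowest marker mean. Among the controls, Pgam2, Eno3 and Pygm were higher on arrays 3 and 4 than on arrays 1 and 2, as the markers were. Phkg1 was lower there, and Pfkm spanned only 2.03 to 2.25 over the 4 controls. With the marker mean as a covariate no gene of the 44 passed, and over all 14730 genes 1 was higher and 0 were lower. The log2 fold change in that fit was 0.016 for Pgam2, 1.46 for Eno3, 1.78 for Pygm, 0.81 for Pfkm and 1.32 for Phkg1. The marker mean separated the groups without overlap, so these fits have wide errors, and 0 calls under them does not measure what muscle RNA accounts for. The part of muscle RNA in these results was not tested beyond these values.

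The difference between a muscle form and its paralog was compared directly within each array, where the scaling of the array cancels. Only the change of this difference between groups has a meaning, because probes differ in brightness. Of 10 pairs, 7 differed between the groups with no overlap of the arrays, each at p = 0.0286 in a two-sided exact permutation test, the smallest p that 4 against 4 arrays allow, and at an adjusted p of 0.041 over the 10 pairs. The first form and its paralog changed unequally on these arrays for these 7. Taken singly, 26.3% of all genes had groups that did not overlap. Pairs of other genes were not tested, so how often such a difference separates these groups is not known. The pairs and the test were chosen with earlier results of these data known, so these p-values are not those of a fresh test. For Pgam2 minus Pgam1 the change between groups was 5.30, from differences of -3.01, -1.36, -1.22 and -2.79 on the Senp2-aKO arrays and -9.17, -9.52, -5.05 and -5.83 on the control arrays. Eno3 minus Eno1 changed by 3.55, Pygm minus Pygb by 3.23 and Pygm minus Pygl by 2.65. Pfkm minus Pfkp changed by 1.48, Phkg1 minus Phkg2 by 1.25 and Hk2 minus Hk1 by 0.47. The pair of smallest change among the 7, Hk2 minus Hk1, had differences of 0.32, 0.28, 0.33 and 0.39 on the Senp2-aKO arrays and -0.075, -0.20, -0.32 and 0.036 on the control arrays.

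In 3 pairs the difference did not pass. Pfkm minus Pfkl changed by 0.90 (exact permutation p = 0.0571, adjusted p = 0.0714), with differences of 0.14, 1.43, 1.62 and 0.42 on the Senp2-aKO arrays and -0.013, 0.13, 0.14 and -0.26 on the control arrays. Senp2-aKO 1 lay within the control range for that pair, and Pfkl was highest on Senp2-aKO 1 and 4, where the difference was smallest. Slc2a4 minus Slc2a1 changed by -0.26 (adjusted p = 0.19), and Fbp2 minus Fbp1 by -0.50 (adjusted p = 0.257), both by exact permutation.

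**Figure D3:**
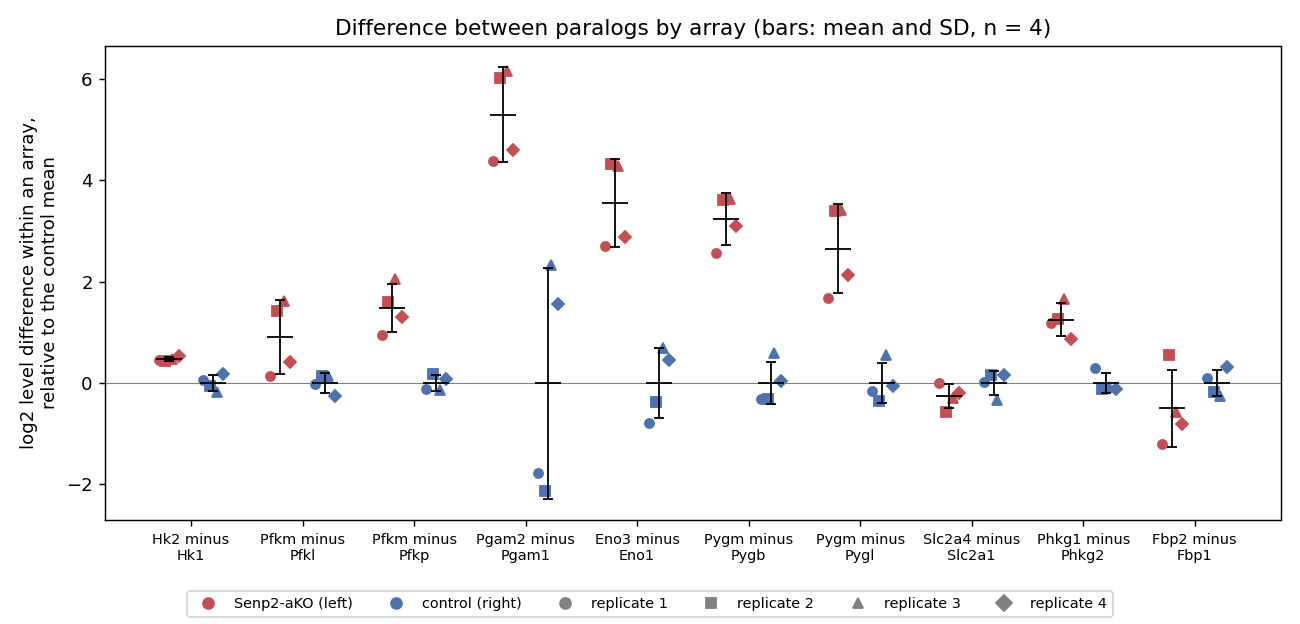
Difference in log2 level between each muscle or muscle-and-fat form and its paralog on each array, drawn relative to the control mean of that pair, for the 10 pairs, Senp2-aKO arrays left of control arrays, with bars for the mean and SD of 4 arrays. The 4 Senp2-aKO points of Pgam2 minus Pgam1, Eno3 minus Eno1 and both Pygm pairs lie above all control points, while those of Slc2a4 minus Slc2a1 and Fbp2 minus Fbp1 overlap them.

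Among transporters and the first steps of glycolysis, the changes were smaller. Slc2a1, the glucose transporter of most tissues, had levels of 1.49, 1.66, 1.49 and 1.64 in Senp2-aKO fat, against 0.90, 1.20, 1.0 and 1.0 in control fat. It was 1.46-fold higher with no overlap (log2 fold change 0.55, SE 0.097, adjusted p = 0.0127). Slc2a4, the insulin-responsive transporter of muscle and fat, had levels of 6.06, 5.67, 5.78 and 6.02 in Senp2-aKO fat, against 5.50, 5.93, 5.25 and 5.73 in control fat. Control 2 lay above 2 of the Senp2-aKO arrays for Slc2a4, and it did not pass (log2 fold change 0.28, SE 0.16, adjusted p = 0.268). Hexokinases trap glucose as glucose 6-phosphate. Hk2, their insulin-responsive form in muscle and fat, had levels of 3.17, 2.99, 3.35 and 3.21 in Senp2-aKO fat, against 2.78, 2.86, 2.53 and 2.94 in control fat. The groups did not overlap for Hk2, and its adjusted p was 0.062 (log2 fold change 0.40, SE 0.12). Hk1, the widely made form, had levels of 2.86, 2.70, 3.01 and 2.82 in Senp2-aKO fat, against 2.86, 3.06, 2.85 and 2.90 in control fat. These overlapped (log2 fold change -0.072, SE 0.098, adjusted p = 0.648), as did those of Hk3, best known from blood cells (log2 fold change -0.42, SE 0.27, adjusted p = 0.329). Gpi1, which turns glucose 6-phosphate into fructose 6-phosphate, did not pass (log2 fold change 0.34, SE 0.15, adjusted p = 0.154).

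None of the 4 genes whose enzymes make and remove fructose 2,6-bisphosphate, the activator of phosphofructokinase, passed. Their log2 fold changes were 0.23 for Pfkfb1, -0.29 for Pfkfb2, -0.18 for Pfkfb3 and 0.10 for Pfkfb4, and none had an unadjusted p under 0.05. Aldolases split the 6-carbon sugar. Aldoc, the aldolase best known from brain, had levels of 0.77, 1.13, 0.51 and 0.27 in Senp2-aKO fat, against -1.18, -0.68, -0.96 and -1.70 in control fat. The groups lay far apart, and Aldoc was 3.49-fold higher (log2 fold change 1.80, SE 0.25, adjusted p = 0.00658), the largest change among the genes that are not muscle forms. It was highest on Senp2-aKO 2 and lowest on Senp2-aKO 4, whereas the muscle forms were highest on Senp2-aKO 3. What the order of the 4 arrays reflects was not tested, here or for the genes below. Aldoa, the main aldolase of muscle and many other tissues, ranged over 9.20 to 9.91 in Senp2-aKO fat and 9.04 to 9.24 in control fat and did not pass (log2 fold change 0.49, SE 0.15, adjusted p = 0.0636). Tpi1, which interconverts the 3-carbon sugars, had a log2 fold change of -0.003 with a 95% confidence interval of -0.48 to 0.48.

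The unpaired enzymes of the later steps of glycolysis did not pass. The log2 fold change of Gapdh, which oxidises glyceraldehyde 3-phosphate, was 0.27 (95% confidence interval -0.059 to 0.60), and its 7 probes ran over 0.19 to 0.37. Pgk1, which makes the first ATP of the pathway, had 0.45 (0.019 to 0.89), and Pkm, pyruvate kinase, had 0.15 (-0.23 to 0.53). Lactate dehydrogenase subunits also did not pass, with 0.15 (-0.19 to 0.49) for Ldha and 0.37 (-0.24 to 0.97) for Ldhb. The lactate exporter Slc16a3, best known from glycolytic muscle fibres, had levels of 0.53, 1.31, 1.44 and 0.92 in Senp2-aKO fat, against -0.46, 0.084, -0.011 and -0.52 in control fat. It was 2.43-fold higher with no overlap (log2 fold change 1.28, SE 0.23, adjusted p = 0.0136), and its other probe gave 1.28 with an adjusted p over probes of 0.019. Like most of the muscle forms, it was lowest on Senp2-aKO 1 and highest on Senp2-aKO 3 within its group. Slc16a1, the widely made lactate transporter, had a log2 fold change of -0.17 (SE 0.22, adjusted p = 0.641), and its groups overlapped.

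The pyruvate dehydrogenase complex itself did not pass, while 2 kinases that switch it off rose. Its subunit genes Pdha1, Pdhb and Dlat had log2 fold changes of 0.43, 0.44 and 0.39, with adjusted p of 0.225, 0.129 and 0.276. Pdk2, a kinase that inactivates the complex, had levels of 3.72, 3.75, 3.0 and 3.59 in Senp2-aKO fat, against 2.02, 2.07, 1.80 and 2.28 in control fat. It was 2.77-fold higher (log2 fold change 1.47, SE 0.19, adjusted p = 0.00487), with its lowest Senp2-aKO value on array 3, where the muscle forms were highest. Pdk4, a kinase of the same family induced by fasting and fatty acids and one of the other pathway genes, had levels of 5.93, 5.96, 5.97 and 6.92 in Senp2-aKO fat, against 3.83, 4.14, 3.82 and 4.15 in control fat. It was 4.62-fold higher (log2 fold change 2.21, SE 0.23, adjusted p = 0.00367), and its highest value stood on Senp2-aKO 4, the array with the highest Ucp1. The mean level of the brown adipocyte markers was 1.08, 1.37, 1.19 and 2.05 on Senp2-aKO arrays 1 to 4, against -0.65, -0.46, -0.78 and -0.85 on control arrays 1 to 4, and its part in these results was not tested beyond the covariate fit given with the other alternatives. The kinases Pdk1 (log2 fold change 0.046, SE 0.11, adjusted p = 0.803) and Pdk3 (log2 fold change -0.17, SE 0.14, adjusted p = 0.453) did not pass. The phosphatase Pdp1, which reactivates the complex, did not pass (log2 fold change 0.015, SE 0.12, adjusted p = 0.943), and neither did the other subunits Dld (0.37) and Pdhx (0.22) or the mitochondrial pyruvate carriers Mpc1 (0.61) and Mpc2 (0.24). Pdp2, another phosphatase of the complex, rose (log2 fold change 0.70, SE 0.15, adjusted p = 0.0224); it was named after its values were seen, and its call was lost without Senp2-aKO 1, Senp2-aKO 4, control 1, control 2 or control 3 (adjusted p 0.0552 to 0.0677).

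Of the 8 glycogen genes, 4 rose (Pygm, Phkg1, Gys1 and Ppp1r3c) and none fell, against 7.29% and 7.12% of all genes tested. Gys1, the glycogen synthase of muscle and most tissues other than liver, had levels of 3.16, 3.0, 2.90 and 3.09 in Senp2-aKO fat, against 2.49, 2.63, 2.26 and 2.68 in control fat. It was 1.44-fold higher with no overlap (log2 fold change 0.52, SE 0.12, adjusted p = 0.0245), but its other probe did not pass (0.38, adjusted p over probes 0.074). Its adjusted p was 0.0619 without Senp2-aKO 1, 0.0621 without Senp2-aKO 4, 0.0738 without control 1 and 0.0565 without control 3. Gys2, the liver form, varied widely within each group, over 2.10 to 3.58 in Senp2-aKO fat and 1.98 to 3.31 in control fat, and did not pass (log2 fold change 0.48, SE 0.39, adjusted p = 0.433). Gbe1, which adds the branches of glycogen, did not pass (log2 fold change 0.15, SE 0.20, adjusted p = 0.638). Ppp1r3c, which brings protein phosphatase 1 to glycogen and so favours synthesis, had levels of 2.64, 2.26, 1.99 and 1.94 in Senp2-aKO fat, against 0.82, 1.17, 0.74 and 1.41 in control fat. It was 2.25-fold higher (log2 fold change 1.17, SE 0.20, adjusted p = 0.0124), and highest on Senp2-aKO 1, the array lowest for most muscle forms.

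Beside the 44 genes, 54 other genes of these pathways were listed, of which 49 were measured. Of these, 12 rose (24.5%) and 4 fell (8.2%), against 7.29% and 7.12% of all 14730 genes tested. Their median log2 fold change was 0.019, against -0.02 for all genes. Counted among those that rose were 2 genes above background on 4 Senp2-aKO arrays but on 1 of 4 controls, so that they were tested through the group where they are high and their fold changes rest on control signals near background. Ppp1r3a, the muscle relative of Ppp1r3c, had a log2 fold change of 3.85 (SE 0.55, adjusted p = 0.00668), against 1.37 with normexp. For the fructose transporter Slc2a5 it was 2.09 (SE 0.55, adjusted p = 0.0398), against 0.84 with normexp, and its call was lost without Senp2-aKO 1, 3 or 4 or control 2, 3 or 4 (adjusted p 0.0643 to 0.103). Slc2a3, the transporter best known from neurons, rose (log2 fold change 1.38, SE 0.24, adjusted p = 0.0129), as did Pgm2, of the phosphoglucomutase family (log2 fold change 0.72, SE 0.12, adjusted p = 0.0103). Mlxip, a sugar-sensing transcription factor, rose by a similar amount (log2 fold change 0.72, SE 0.098, adjusted p = 0.00602), but did not pass with the mean of all its probes (0.44, adjusted p = 0.0855). Phka1, the muscle regulatory subunit of phosphorylase kinase, rose with a smaller change (log2 fold change 0.58, SE 0.15, adjusted p = 0.0403), and that call was lost without Senp2-aKO 3 or 4 or any 1 of the 4 controls (adjusted p 0.0647 to 0.111).

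Fewer of the listed genes fell, and their share (8.2%) was close to the 7.12% of all genes tested. Ppp1r3d, a further glycogen-targeting subunit, ran over 0.99 to 1.44 in Senp2-aKO fat and 2.10 to 2.39 in control fat and fell with no overlap (log2 fold change -0.93, SE 0.13, adjusted p = 0.00636). Slc2a10, another member of the glucose transporter family, also fell (log2 fold change -1.23, SE 0.30, adjusted p = 0.0307). The call of Slc2a5 was lost without any 1 of the 4 control arrays but control 1, or of Senp2-aKO 1, 3 or 4 (adjusted p 0.0643 to 0.103). That of Slc2a10 was lost without any control, Senp2-aKO 1 or Senp2-aKO 4 (0.0535 to 0.0854), and that of Phka1 without any control, Senp2-aKO 3 or Senp2-aKO 4 (0.0647 to 0.111). The remaining genes that fell were Hif1a, which encodes the oxygen-regulated subunit of the factor HIF (log2 fold change -0.49, SE 0.11, adjusted p = 0.027), and the arrestin-domain gene Arrdc4 (log2 fold change -0.64, SE 0.18, adjusted p = 0.0486). Both were named after their values were seen, as were Ppp1r3b, a glycogen-targeting subunit best known from liver (0.50), and Txnip, a glucose-induced gene (0.48), which rose. The calls of Arrdc4 and Txnip were lost without any 1 array other than Senp2-aKO 3, at adjusted p of 0.0706 to 0.117 and 0.0533 to 0.103. Those of Hif1a (0.0608 to 0.0837) and Ppp1r3b (0.06 to 0.1) were lost without Senp2-aKO 1, Senp2-aKO 4, control 1, control 3 or control 4. Neither the phosphoglucomutase gene Pgm1 (0.21) nor Ugp2, which makes UDP-glucose (0.13), passed.

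Arrays of one group differed in a way that many of the 44 genes shared. Of the 33 genes that did not pass, 27 had their lowest Senp2-aKO value on array 2, and 19 had their highest on array 4, while none of the 11 that rose was lowest on array 2. All 11 unpaired enzymes were lowest on Senp2-aKO 2 and highest on Senp2-aKO 4. Senp2-aKO 2 had a mean B and T lymphocyte marker level of 2.47, against -2.30 to -1.63 on the other 3 Senp2-aKO arrays and -2.11 to -0.082 on the control arrays. Without Senp2-aKO 2, 18 of the 44 genes rose: the 11, and Aldoa, Gapdh, Hk2, Ldha, Pdha1, Pdhb and Pgk1. Calls over all 14730 genes were also more without that array, 1356 higher and 1472 lower, against 1074 and 1049 with all arrays. The part of lymphocyte RNA in these values was not tested beyond this omission and the covariate given with the other alternatives.

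**Figure D4:**
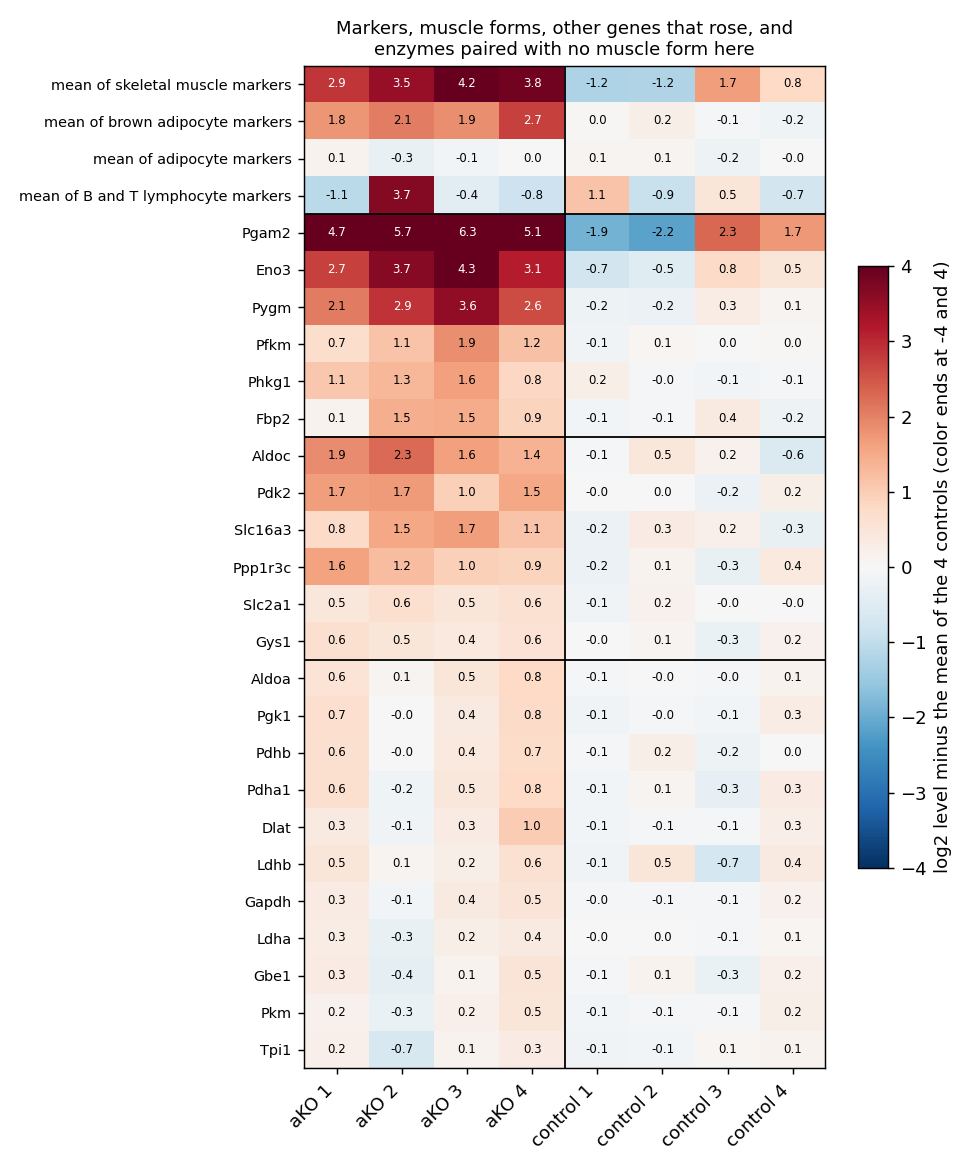
Level on each array minus the mean of the 4 control arrays (colour and printed value, log2), with Senp2-aKO arrays left of control arrays, for the mean of 4 marker lists, the 6 muscle forms, the other 6 genes that rose and the 11 unpaired enzymes. The muscle forms are highest on Senp2-aKO 3, and the 11 enzymes are lowest among the Senp2-aKO arrays on array 2.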

How the data were processed

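Cy3-labelled cRNA from 0.5 µg of total RNA of each of 8 samples was hybridised to 1-colour Agilent arrays. The deposited spot intensities come from Agilent Feature Extraction 11.5.1, per the submitters' processing notes. Per the file headers, it detrended and subtracted the background within each array, and no scaling between arrays is recorded. The deposited table of normalised values has 8 columns that could not be assigned to samples and was not used. Each array holds 62976 spots. The processed signal was put on the log2 scale, and each array's 75th percentile was subtracted. Spots of a probe were averaged without outlier flags, and a probe was kept if well above background on at least 4 of 8 arrays. Probes were named from the RefSeq accession (GRCm38.p6), for 27656 probes with a name and 28025 without one, and the brightest probe stood for a gene. The 14730 genes were tested in R 4.3.3 by limma 3.58.1, with Benjamini-Hochberg adjustment and a threshold of 0.05. Isoenzyme pairs were tested by exact permutation over the 70 assignments of arrays. Per-array values are given for genes that rose and for both genes of each pair; of the other pathway genes, the 10 calls of largest change and 10 fixed genes were to be named, of which 2 are not reported here. The genes, lists, pairs and tests were chosen with earlier results of these data known. On simulated data with 14730 genes, 58%, 82%, 92% and 96% of genes changed by 0.5, 1, 2 and 4 on the log2 scale were recovered, and 12 of 176 calls were false. The simulated noise was independent between arrays, with the SD of the control arrays used for both groups. The Senp2-aKO arrays were less alike (lowest correlation within the group 0.964, against 0.985 among controls), so recovery in the data may be lower. The labels give 1 sample per array and do not say that each came from a separate mouse, so p-values measure the spread between these samples. The number of arrays limits the precision.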

Additional observations from a re-analysis of the deposited data

Results flagged for a closer look

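In 6 of 90 groups of 4 arrays checked (the 44 genes and Senp2 in each group), 1 array stood far from the other 3, and chance alone flags about 1 in 20 such groups. Pfkfb3 was 6.42 on Senp2-aKO 1, against 6.04 to 6.08 on the other Senp2-aKO arrays. Phkg1 was -0.87 on control 1, above -1.21 to -1.15 on the other controls. Gapdh was 8.38 on control 4, above 8.13 to 8.17 on the others. Eno1 was 6.57 on control 2, below 6.72 to 6.74 on the others. Slc16a1 was -2.35 on control 1, above -2.94 to -2.84 on the others. Pygb was 2.08 on control 3, below 2.44 to 2.47 on the others. Of these genes Phkg1 alone passed the test, and its call held without control 1.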

How the results depend on the processing

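The 4 arrays per group limit what could be detected. The calls of 10 of the 11 genes that rose held when each of the 8 arrays was left out in turn, and that of Gys1 did not. Genes of the 44 that rose numbered 10 to 18 over these omissions (18 without Senp2-aKO 2), and 0 to 1 fell. Of the other pathway genes 6 to 16 rose (6 without Senp2-aKO 4, 7 without control 1 or control 3) and 1 to 5 fell. Quantile normalization and normexp background correction each gave 12 genes that rose and 1 that fell. The gene that fell was Pfkfb3 under quantile normalization and Pygb under normexp and without Senp2-aKO 3. Array weights gave 21 and 1 (Pygb), and the lymphocyte marker covariate 19 and 0, while calls over all genes, 1074 higher and 1049 lower, became 1831 and 1932 under array weights and 1614 and 1860 under the lymphocyte covariate. Array weights gave 9 other pathway genes that fell and the lymphocyte covariate 7. The muscle and brown marker covariates each gave 0 calls in both lists and both directions. Over all 14730 genes, 1 was higher and 0 were lower (muscle), and 0 and 0 (brown), so these counts say nothing particular to the lists. At an unadjusted limma p under 0.05, 8 of the 44 genes were higher and 1 lower with the muscle covariate. With the brown covariate 4 were higher and 0 lower. The same counts over all genes are not given here, so these too say nothing particular to the 44 genes. Each marker mean separates the groups without overlap, which widens the errors. The brown covariate was chosen after seeing the data. No filter on background, a filter on all 8 arrays and the mean of all probes each left 11 that rose. Without a filter on background the calls of Slc2a5, Slc2a10, Phka1, Ppp1r3b, Txnip and Arrdc4 were lost (adjusted p 0.0513 to 0.0771), and with the mean of all probes that of Mlxip was lost. Quantile normalization lost that of Txnip. Naming probes from a gene name column of the arrays was not run, because the scanner tables analysed here have no such column. The cause of these changes was not tested.

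The log2 fold change of Senp2 passed the test under quantile normalization (-0.26), normexp (-0.31), a filter on all 8 arrays (-0.27), array weights (-0.25), the lymphocyte covariate (-0.27) and without Senp2-aKO 2; over the omissions it ran over -0.30 to -0.25. The labels do not say that replicate numbers pair the samples. Correlations of same-numbered deviations were -0.017, -0.075, 0.14 and 0.11, which do not decide it. With a replicate block, 11 of the 44 genes rose and Senp2 had an adjusted p of 0.135. Of the other pathway genes, the calls of Slc2a5, Phka1, Ppp1r3b, Txnip and Arrdc4 were lost with that block.

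None of the 11 genes that rose changed sign under any alternative. Signs turned for genes that had not passed, with log2 fold changes of -0.11 for Ldha (quantile), 0.11 for Slc16a1 and -0.029 for Pdp1 (normexp), 0.0099 for Tpi1 (mean of all probes), 0.22 for Tpi1 and 0.092 for Eno1 (array weights) and 0.055 for Tpi1 (lymphocyte covariate). With the muscle covariate they were -0.44 for Pfkfb4, -0.35 for Eno2, -0.066 for Pkm, -0.041 for Pdk1 and 0.29 for Pdk3. With the brown covariate 21 of the 44 genes changed sign: -0.17 for Slc2a4, 0.39 for Hk3, -0.20 for Gpi1, -0.27 for Pfkl, 0.31 for Pfkfb2, 0.21 for Pfkfb3, -0.023 for Pfkfb4, -0.070 for Aldoa, -0.032 for Gapdh, -0.41 for Pgam1, -0.37 for Pkm, -0.13 for Ldha, -0.49 for Ldhb, -0.14 for Pdha1, -0.26 for Pdhb, -0.88 for Dlat, -0.51 for Pdk1, 0.41 for Pdk3, -0.45 for Pygl, -0.11 for Gys2 and -0.51 for Gbe1. It also turned the signs of other pathway genes, 3 of which had passed (Slc2a5, Phka1 and Arrdc4): -1.44 for Slc2a5, -0.067 for Pdhx, -0.30 for Dld, -0.043 for Mpc1, -0.50 for Mpc2, -0.14 for Pgm1, -0.047 for Ugp2, -0.00098 for Phka1 and 0.063 for Arrdc4. Over the omissions of 1 array the ranges that crossed 0 were -0.22 to 0.092 for Eno1, -0.020 to 0.090 for Pdk1, -0.044 to 0.081 for Pdp1, -0.026 to 0.29 for Pfkfb4, -0.26 to 0.032 for Slc16a1 and -0.11 to 0.21 for Tpi1.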
